A study of Saccharomyces cerevisiae with 18 samples.

Results

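Messenger RNA levels in an rlm1 mutant and in the wild type of the budding yeast Saccharomyces cerevisiae were compared after both had grown with the dye Congo Red, to show which levels the mutant reached while its wall was under stress. The comparison uses 6 of the 18 arrays of the series, chosen by their labels: 3 of rlm1 and 3 of the wild type, each of strain BY4741 and each grown with 30 µg/ml Congo Red for 4 hours. The 6 arrays of the same strains grown for 4 hours without the dye show how far a difference was already there, and the 6 swi3 arrays enter only an alternative fit. Each array came from its own culture according to the series design, and p-values measure the spread among cultures taken as independent. Same-numbered arrays of a strain deviated together, however, and the main fit leaves that pairing out, which matters most for the interaction described below. An alternative fit takes same-numbered arrays of a strain as a random block, with a correlation of 0.691 within blocks. The labels call the mutant rlm1 and do not say how the gene was altered or how many clones were used. BY4741 is a haploid laboratory strain that lacks several nutritional genes, which the controls share.

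The cell wall integrity pathway carries signals of wall damage from sensors in the plasma membrane to the small GTPase Rho1 and on to protein kinase C. Protein kinase C starts a cascade of kinases that ends in the MAP kinase Slt2. Slt2 phosphorylates Rlm1, a transcription factor of the MADS-box family that binds upstream of many genes for wall proteins and for enzymes that build the wall. Congo Red attaches to chitin and to glucan chains and interferes with the way they assemble, which activates the pathway.

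Levels are log2 values of probe sets, the groups of probes that measure a gene on an Affymetrix array, after quantile normalization of the 12 wild-type and rlm1 arrays. A difference is rlm1 minus wild type on that scale, its error is the SE of the limma fit with n = 3 arrays per group, and a call needs an adjusted p under 0.05 (Benjamini-Hochberg over 5658 features). Probe sets for reporter sequences mostly lay under a level of 7, so a difference whose lower mean is under 7 is a least estimate of its size. In RNA from whole cultures, fewer cells of a kind and less RNA per cell cannot be told apart.

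Before normalization, the number 1 arrays of rlm1 stood apart, with medians of 9.27 and 9.28 against 9.98 to 10.02 on the other rlm1 arrays and 10 to 10.03 in the wild type. Their control probe sets also differed more between the 3' and the 5' end (1.15 and 1.03) than those of the other 10 arrays (0.72 to 0.86). LEU2, which is deleted in BY4741, was at 8.77 on both of these arrays and between 6.02 and 6.62 on the others. After normalization, the median SD within a group lay between 0.096 and 0.12, where it had been 0.412 and 0.422 in the rlm1 groups as deposited. The part of these arrays in the results was not tested beyond the values without them, which are given below. Without both number 1 arrays, 1537 features were called under the dye in place of 1348.

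Under Congo Red, 1348 of 5658 features differed between the strains (23.8%), 703 of them lower in rlm1 (12.4%) and 645 higher (11.4%). The median over all features was 0.02, and 2068 had an unadjusted p under 0.05. Of the differences of at least 2-fold, 90 were lower (1.59%) and 15 higher (0.265%), so the large differences were mostly losses. In each of those 105 features (1.86%) the 3 rlm1 arrays all lay on one side of the 3 wild-type arrays. The calls were made on these same arrays, so the separation follows largely from the call and adds no support to it. Among calls of any size it was found in 700 of the 703 lower and 641 of the 645 higher features. That separation was found in 1133 of all features with rlm1 below (20%) and in 1201 with rlm1 above (21.2%). On the values as deposited, where the number 1 arrays are shifted as a whole, 6 features were called higher and 88 lower (93.6% lower, against 52.2% after normalization), and the median over all features was -0.26.

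**Figure D1:**
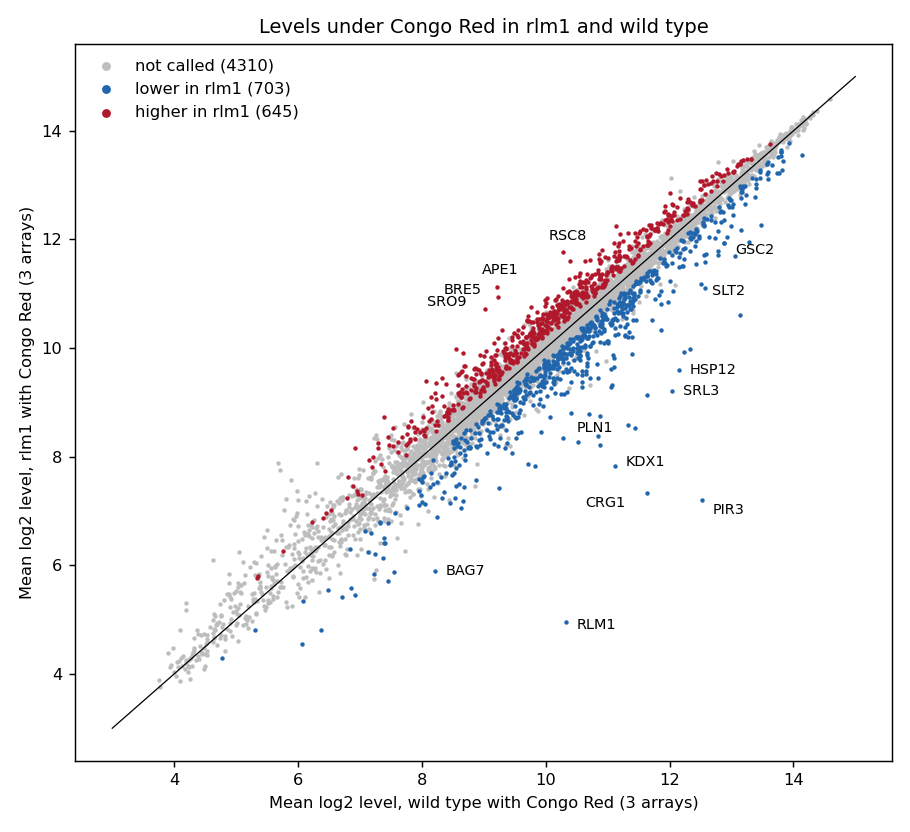
Mean log2 level under Congo Red of each of the 5658 features in rlm1 (vertical axis, 3 arrays) against the wild type (horizontal axis, 3 arrays). The line marks equal levels, 703 features called lower in rlm1 are blue and 645 called higher are red. RLM1, PIR3 and CRG1 lie farthest below the line, with differences of -5.36, -5.32 and -4.30, and APE1 lies above it, with 1.92.

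RLM1 itself was measured first. Its level under the dye was 10.41, 10.31 and 10.23 in the wild type and 5.52, 4.53 and 4.82 in rlm1. The groups were far apart, and the rlm1 arrays lay in the range of the reporter probe sets. The difference was -5.36 ± 0.23 (adjusted p = 5.71e-07), a least estimate, and it was -4.16 without the dye. Of its neighbours on the chromosome, YPL088W, a gene for a putative aryl alcohol dehydrogenase, was at 12.02, 12.29 and 12.39 in the wild type with the dye and at 10.04, 9.90 and 9.82 in rlm1. That difference was -2.31 ± 0.15 (adjusted p = 7.83e-06), and it was 0.39 ± 0.15 without the dye (adjusted p = 0.294). RPS6A, on the other side, was not among the features tested. Beyond these neighbours, the ceramidase gene YDC1 was lower (-0.62 ± 0.14, adjusted p = 0.0117), and the glutathione reductase gene GLR1 differed by -0.11 ± 0.08 (adjusted p = 0.374).

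Genes linked to Rlm1 in earlier work were mostly lower. Of 22 measured members of this list, 18 were called lower (81.8%) and 1 higher (4.55%), beside 12.4% and 11.4% of all features. The median difference was -0.94 against 0.02 over all features. The list was chosen with earlier results of these arrays known. PIR3, a wall protein with internal repeats that is bound to glucan, had levels of 12.11, 12.60 and 12.87 in the wild type and 7.21, 7.23 and 7.17 in rlm1. The mutant arrays were thus close together, at about the level of both strains without the dye (7.17 to 7.44). The difference was -5.32 ± 0.16 (adjusted p = 3.1e-08). KDX1, a protein related to the kinase Slt2, was at 10.99, 11.09 and 11.25 in the wild type and 8.02, 7.76 and 7.69 in rlm1. This was a 9.77-fold difference (-3.29 ± 0.15, adjusted p = 5.71e-07).

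The PIR family did not move as 1 group. PIR3 differed most among the 4 members examined, and HSP150, also called PIR2, was lower by a small amount (-0.34 ± 0.07, adjusted p = 0.00627). PIR1 (-0.15 ± 0.06, adjusted p = 0.0772) and CIS3 (-0.14 ± 0.06, adjusted p = 0.0926) were not called. In 3 and 2 of 19 alternatives they were called lower (adjusted p down to 0.0162 and 0.0278). PIR1 was at 13.08, 13.14 and 13.03 in the wild type and at 12.94, 12.91 and 12.95 in rlm1. Its groups lay apart by less than 0.1. Other Rlm1-linked genes with large differences were PRM5, a membrane protein of unknown role (-2.33 ± 0.23), the kinase YPK2 (-1.91 ± 0.22) and PST1, a GPI-anchored wall protein (-1.47 ± 0.10). SWI4, which encodes a transcription factor of the G1 phase that also takes signals from Slt2, was the 1 member higher in rlm1 (0.67 ± 0.17, adjusted p = 0.0181). SWI4 lost its call without any of 4 of the 6 arrays, with an adjusted p of up to 0.0609 (without number 2 of the wild type).

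Among the components of the signalling pathway, the genes of the MAP kinase step and its regulators differed and the upstream kinases examined did so little or not at all. Of 30 measured members, 12 were lower (40%) and 2 higher (6.67%), beside 12.4% and 11.4% of all features, with a median of -0.11. Starting at the membrane, the sensor MID2 was lower (-0.42 ± 0.08, adjusted p = 0.00443), and so was the related MTL1 (-0.68 ± 0.13, adjusted p = 0.00564). The exchange factor ROM1, which activates Rho1, was at -0.69 ± 0.22 (adjusted p = 0.0442), but it lost its call without any of 4 of the 6 arrays (adjusted p up to 0.131, without number 1 of rlm1). RHO1 was lower (-0.41 ± 0.06, adjusted p = 0.00171). BAG7, a GTPase-activating protein that turns Rho1 off, was at 8.06, 8.09 and 8.47 in the wild type and at 6.76, 5.51 and 5.41 in rlm1. Its difference of -2.31 ± 0.41 (adjusted p = 0.00329) is a least estimate, because the rlm1 mean is under 7.

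The kinases examined between Rho1 and Slt2 were PKC1, BCK1 and MKK1, chosen after their values were seen, and none was called lower. PKC1, protein kinase C, was at 9.99, 9.71 and 9.92 in the wild type and at 9.83, 10 and 9.89 in rlm1, and the groups overlapped (0.03 ± 0.09, adjusted p = 0.831). BCK1, the first kinase of the cascade, differed by -0.09 ± 0.07 (adjusted p = 0.347). MKK1, a kinase that phosphorylates Slt2, was slightly higher (0.30 ± 0.10, adjusted p = 0.0462), a call lost without any of 5 of the 6 arrays (adjusted p up to 0.147, without number 2 of the wild type). SLT2 was at 12.47, 12.59 and 12.45 in the wild type and at 11.49, 11.05 and 10.99 in rlm1. Every rlm1 array was below every wild-type array, and the test gave -1.33 ± 0.15 (adjusted p = 0.000305). PTP2, a phosphatase that removes phosphate from MAP kinases, was lower by a similar amount (-1.20 ± 0.06, adjusted p = 2.22e-06). The phosphatase MSG5 differed by -0.89 ± 0.17 (adjusted p = 0.00495).

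Chitin genes were lower at the step that makes the precursor and at the synthases CHS1 and CHS3, but not at CHS2. Of 20 measured members, 9 were lower (45%) and 1 higher (5%), beside 12.4% and 11.4% of all features, with a median of -0.26. GFA1, whose enzyme makes glucosamine 6-phosphate and starts the path to chitin, was at 13.27, 13.33 and 13.27 in the wild type and at 11.91, 11.99 and 11.95 in rlm1. The 3 arrays of each group lay within 0.1 of each other, and the difference was -1.34 ± 0.06 (adjusted p = 5.71e-07). PCM1, which acts later in the same path, differed by -1.36 ± 0.06 (adjusted p = 5.71e-07). The difference of PCM1 without the dye was -0.34 ± 0.06 and narrowly missed a call (adjusted p = 0.0509). CHS3, the synthase for most wall chitin, was lower (-0.88 ± 0.11, adjusted p = 0.000666), and so was the repair synthase CHS1 (-0.86 ± 0.08, adjusted p = 7.47e-05). CHS2, the synthase of the septum between mother and daughter, was the 1 member called higher. It was at 10.63, 10.49 and 10.66 in the wild type and at 10.94, 10.90 and 10.91 in rlm1 (0.32 ± 0.07, adjusted p = 0.00659), a small difference with no overlap between the groups. CHS6, which helps to bring Chs3 to the cell surface, was also lower (-0.66 ± 0.15, adjusted p = 0.0113).

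Genes that make or remodel beta-glucan, the main polymer of the wall, were lower by less. Of 31 measured members, 13 were lower (41.9%) and 2 higher (6.45%), beside 12.4% and 11.4% of all features, with a median of -0.19. After centring in place of quantile normalization, 5 were lower. The list overlaps the chitin list in CRH1, whose enzyme links chitin to glucan (-0.99 ± 0.10, adjusted p = 0.000227). EXG2, an exoglucanase, was lower (-1.06 ± 0.09, adjusted p = 4.57e-05), as were its relative EXG1 (-0.47 ± 0.07, adjusted p = 0.000981), KNH1 (-0.69 ± 0.15, adjusted p = 0.0104) and ROT1 (-0.63 ± 0.07, adjusted p = 0.000254), of which the last pair act in making beta-1,6-glucan or in its folding path. The glucan synthase subunit of vegetative growth, FKS1, differed by -0.29 ± 0.06 (adjusted p = 0.00695). SCW11, a glucanase-like wall protein of daughter cells, was higher (0.41 ± 0.08, adjusted p = 0.00457), and so was DSE4, another glucanase of daughter cells (0.29 ± 0.07, adjusted p = 0.0115).

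Wall mannoproteins other than PIR3 differed by smaller amounts. Of 25 measured members, 9 were lower (36%, beside 12.4% of all features) and 0 higher (beside 11.4%), and the median was -0.10. After centring, 5 were lower and the median was -0.02. CWP1, a GPI-anchored mannoprotein, was at 13.47, 13.46 and 13.48 in the wild type and at 12.04, 12.39 and 12.38 in rlm1. All rlm1 arrays were about 1 unit below the wild type, and the difference was -1.20 ± 0.10 (adjusted p = 3.84e-05). Without the dye, the CWP1 difference was 0.38 ± 0.10, above zero and not called (adjusted p = 0.139). SPI1, a wall protein of stationary phase, was lower (-1.11 ± 0.12, adjusted p = 0.000228). SED1 (-0.58 ± 0.08) and CCW14 (-0.54 ± 0.06), abundant structural wall proteins, were lower as well, but not after centring (adjusted p = 0.0865 and 0.121). KTR2, a mannosyltransferase that extends the sugar chains of such proteins, was at 10.82, 10.84 and 10.96 in the wild type and 8.76, 8.75 and 8.74 in rlm1 (-2.12 ± 0.09, adjusted p = 5.71e-07).

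Yapsins are aspartic proteases anchored at the cell surface that process wall proteins. Of 6 measured members, 4 were lower (66.7%, beside 12.4% of all features) and 0 higher (beside 11.4%). YPS3 was at 11.73, 11.68 and 11.52 in the wild type and at 9.56, 8.95 and 8.87 in rlm1 (-2.52 ± 0.25, adjusted p = 0.000141). YPS6 differed by -1.85 ± 0.17 and YPS7 by -0.51 ± 0.06 (adjusted p = 9.52e-05 and 0.000562). YPS1 was at -0.52 ± 0.15 (adjusted p = 0.0304) and lost its call without any of 5 of the 6 arrays (adjusted p up to 0.104, without number 1 of the wild type).

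**Figure D2:**
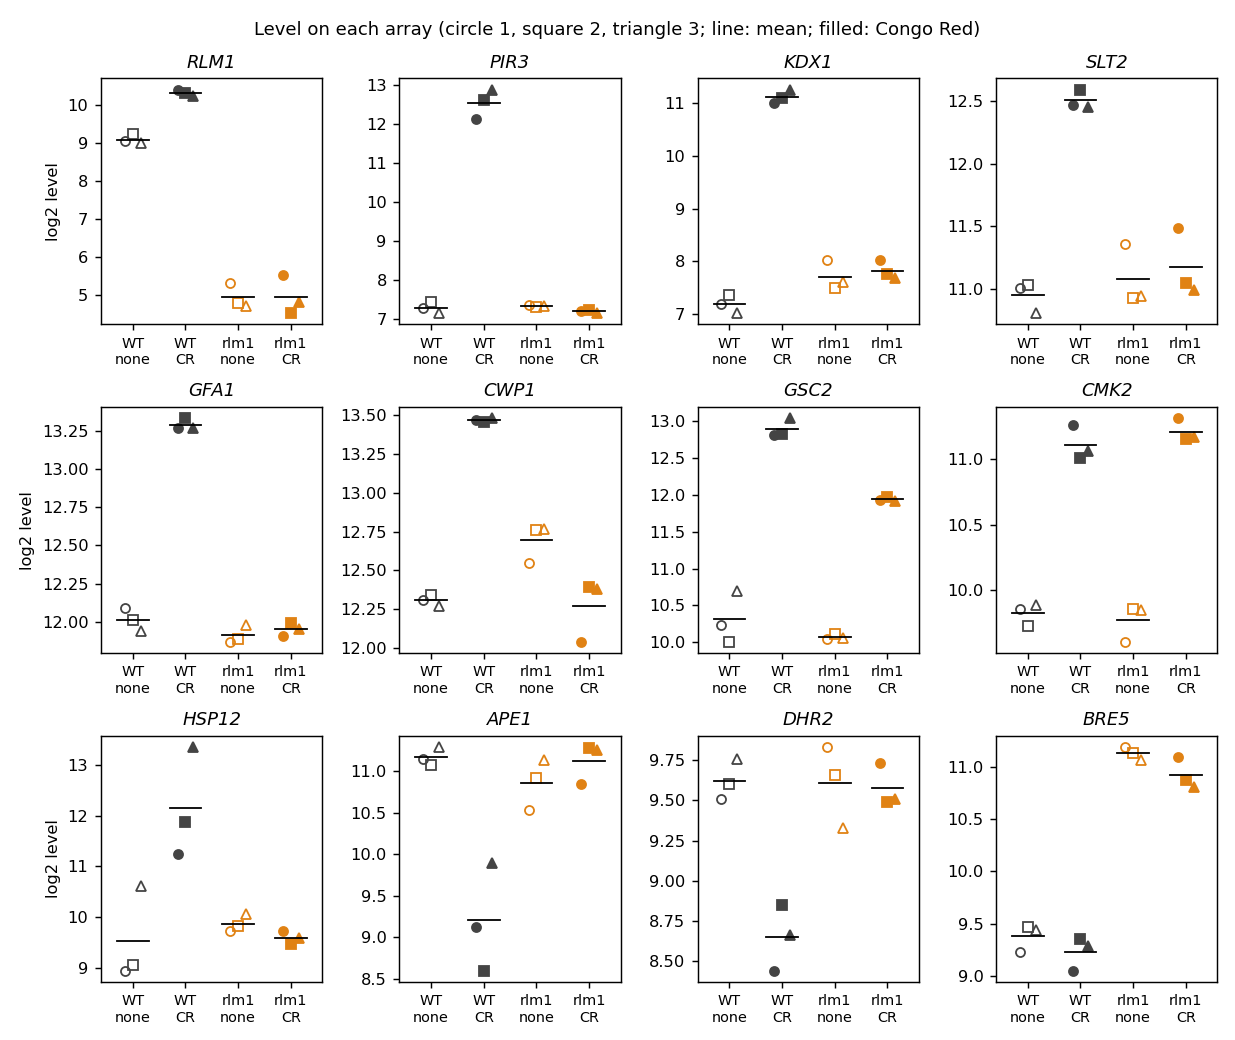
Log2 level of 12 genes on each of the 12 arrays of the wild type (WT, dark) and rlm1 (orange), without dye (none, open) and with Congo Red (CR, filled); symbols give the replicate number, bars the mean of 3 arrays, and each panel has its own vertical axis, which does not start at 0. PIR3, KDX1, SLT2, GFA1 and CWP1 are lower in treated rlm1 than in the treated wild type, GSC2 lies between, CMK2 overlaps, and BRE5 is higher in rlm1 with and without the dye.

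Several genes outside the wall lists were among the most different. CRG1, which encodes a methyltransferase, was at 11.55, 11.68 and 11.68 in the wild type and at 7.02, 7.53 and 7.46 in rlm1, a 19.7-fold difference (-4.30 ± 0.31, adjusted p = 1.67e-05). It was at -1.42 ± 0.31 without the dye, which was not called (adjusted p = 0.102). PLN1, a protein of lipid droplets, differed by -2.91 ± 0.19 and SRL3, a relative of the cell cycle inhibitor Whi5, by -2.84 ± 0.18. YNR065C, related to sorting receptors of the vacuole, differed by -2.75 ± 0.15. AFR1, which shapes mating projections, was at 10.90, 10.83 and 10.88 in the wild type and at 7.62, 8.48 and 8.54 in rlm1. Number 1 of rlm1 was lowest for AFR1 and CRG1, and AFR1 was at -2.66 ± 0.37 (adjusted p = 0.000943). Without the dye, number 1 of rlm1 was also the lowest for CRG1 (6.11, against 7.32 and 7.39). PRM10, a pheromone-regulated membrane protein, completed these genes (-2.26 ± 0.19, adjusted p = 5.29e-05).

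Not every gene that rises with the dye was lower in rlm1. GSC2, the second catalytic subunit of glucan synthase and a target of both Rlm1 and the calcineurin factor Crz1, was at 12.81, 12.82 and 13.03 in the wild type and at 11.93, 11.97 and 11.92 in rlm1. The level was lower in the mutant (-0.95 ± 0.14, adjusted p = 0.00144), but it had risen there by 1.87 ± 0.14 above the untreated mutant (adjusted p = 0.000358), a direction called in 0.619% of features in rlm1. CMK2, a calmodulin-dependent kinase and Crz1 target, was at 11.26, 11.01 and 11.06 in the wild type and at 11.31, 11.15 and 11.17 in rlm1. The groups overlapped, and the difference was 0.10 with a 95% interval from -0.11 to 0.31. DIA1, a gene of invasive growth, differed by -0.16 (95% interval -0.52 to 0.21) and RCR1, linked to Congo Red resistance, by -0.17 ± 0.13 (adjusted p = 0.367). YSR3, a phosphatase of sphingoid base phosphates, differed by -0.28 (95% interval -0.60 to 0.04). The intervals of CMK2, DIA1 and YSR3 leave room for differences of up to 0.60, and a missed threshold does not show that levels were equal. YSR3 was called lower in 2 of 19 alternatives, among them without both number 1 arrays of rlm1 (-0.33, adjusted p = 0.0288). RCR1 was called lower in 1 of 19 (adjusted p = 0.0118). With the random block, the interaction of YSR3 was called as well (-0.56, adjusted p = 0.0107). RTA1, which protects against aminocholesterol, was lower (-0.76 ± 0.12, adjusted p = 0.00166).

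Of 18 measured calcineurin pathway genes and Crz1 targets, 5 were lower (27.8%) and 1 higher (5.56%), beside 12.4% and 11.4% of all features. The median was -0.15, and 0 were called in the test of the difference from the untreated strains. The lower members were GSC2, YPS1, the calcineurin inhibitor RCN2 (-0.53 ± 0.09, adjusted p = 0.00222), the calmodulin gene CMD1 (-0.31 ± 0.08) and the calcineurin subunit CMP2 (-0.28 ± 0.08). CMD1 lost its call without number 2 or 3 of rlm1 (adjusted p up to 0.0552) and CMP2 without 3 of the arrays (up to 0.0948, without number 2 of rlm1). The higher member, HAC1, lost its call without each of the 6 arrays (0.26 ± 0.08, adjusted p up to 0.0954). Without number 2 or number 3 of rlm1, 2 members were lower, and without number 1 of the wild type 3 were.

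General stress genes, which answer to the transcription factors Msn2 and Msn4 in many kinds of stress, were lower under the dye in rlm1. Of 34 measured members, 20 were lower (58.8%, beside 12.4% of all features) and 0 higher (beside 11.4%), with a median of -0.63. The count was 14 to 16 with any 1 of the 6 arrays left out, 22 without both number 1 arrays of rlm1, and 2 as deposited. HSP12, a small heat shock protein of membranes, was at 11.24, 11.87 and 13.34 in the wild type and at 9.73, 9.47 and 9.59 in rlm1. The wild-type arrays varied by over 2 units while the rlm1 arrays lay close together, and all of the first were above all of the second. The difference was -2.56 ± 0.53 (adjusted p = 0.00732), and it was -1.96 without number 3 of the wild type (adjusted p = 0.0149). Number 3 was also the highest wild-type array without the dye (10.62, against 8.95 and 9.05).

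DDR2, a gene of multiple stresses, had the same order of arrays, with 10.40, 10.54 and 11.57 in the wild type and 9.65, 9.28 and 9.41 in rlm1 (-1.39 ± 0.28, adjusted p = 0.0057). The chaperone HSP26 (-1.14 ± 0.16, adjusted p = 0.000991), MSC1 (-1.14 ± 0.25, adjusted p = 0.00933) and the trehalase NTH1 (-1.05 ± 0.13, adjusted p = 0.000445) were lower. GPH1, which breaks down glycogen, was at -1.47 ± 0.41 (adjusted p = 0.0274) and lost its call without number 1 or 3 of the wild type or number 1 of rlm1 (adjusted p up to 0.0866). Not all markers of this response were far apart. The catalase CTT1 differed by -0.37 ± 0.08 (adjusted p = 0.00797), and the chaperone HSP104 was at 12.06, 11.78 and 12.01 in the wild type and 11.55, 11.89 and 11.84 in rlm1, with groups that overlapped (-0.19 ± 0.14, adjusted p = 0.348).

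Genes of ribosome biogenesis, which encode the factors that process and assemble ribosomal RNA in the nucleolus, were higher in rlm1 under the dye. Of 44 measured members, 38 were higher (86.4%, beside 11.4% of all features) and 0 lower (beside 12.4%). The median was 0.57, and all 44 values were above 0. The count was 35 without both number 1 arrays of rlm1, 31 after centring, and 28 to 39 with 1 array left out, and it was 0 as deposited, where the median was 0.34. DHR2, an RNA helicase, was at 8.44, 8.85 and 8.66 in the wild type and at 9.73, 9.49 and 9.51 in rlm1. The difference was 0.93 ± 0.14 (adjusted p = 0.00166), against -0.02 ± 0.14 without the dye. The rlm1 arrays with the dye lay at the level of both strains without it (9.33 to 9.83), and the wild type was below.

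RRP14 (0.80 ± 0.18, adjusted p = 0.0106), the helicase DBP2 (0.79 ± 0.17, adjusted p = 0.00946), NOP14 (0.79 ± 0.11, adjusted p = 0.00114) and UTP9 (0.74 ± 0.13, adjusted p = 0.00318), all factors of the small or large subunit, were higher. EBP2 was at 9.79, 10.53 and 10.79 in the wild type and at 11.37, 11.27 and 11.16 in rlm1, with number 1 of the wild type lowest. The difference was 0.90 ± 0.25 (adjusted p = 0.0258), lost without any of 4 of the 6 arrays (adjusted p up to 0.0689, without number 1 of rlm1) and without both number 1 arrays of rlm1 (0.0628). RRP36 and CGR1, outside the list but factors of the same process, were at 1.01 ± 0.29 (adjusted p = 0.0292) and 1.25 ± 0.40 (adjusted p = 0.0492). Number 1 of the wild type was lowest for both (6.82 and 7.88), and without it neither was called (0.66 and 0.86, adjusted p up to 0.0797 and 0.157 over the 6 arrays).

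The unfolded protein response raises chaperones and folding enzymes of the endoplasmic reticulum. Of 23 measured members, 11 were lower in rlm1 (47.8%) and 1 higher (4.35%), beside 12.4% and 11.4% of all features. The median was -0.22. The count of lower members was 5 without number 1 or number 2 of the wild type, 6 or 7 without any rlm1 array, and 6 after centring. JEM1, a cofactor of the chaperone Kar2, was lower (-0.58 ± 0.11, adjusted p = 0.00457), as were the disulphide isomerase EUG1 (-0.57 ± 0.13, adjusted p = 0.0133) and the degradation factor DER1 (-0.53 ± 0.11, adjusted p = 0.00703). SIL1 (-0.82 ± 0.21), LHS1 (-0.38 ± 0.10) and ERO1 (-0.36 ± 0.11) were called but lost their calls without 3, 3 and 4 of the 6 arrays (adjusted p up to 0.0747, 0.0716 and 0.0904). HAC1, the factor of this response and the member that was higher, lost its call as given above.

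**Figure D3:**
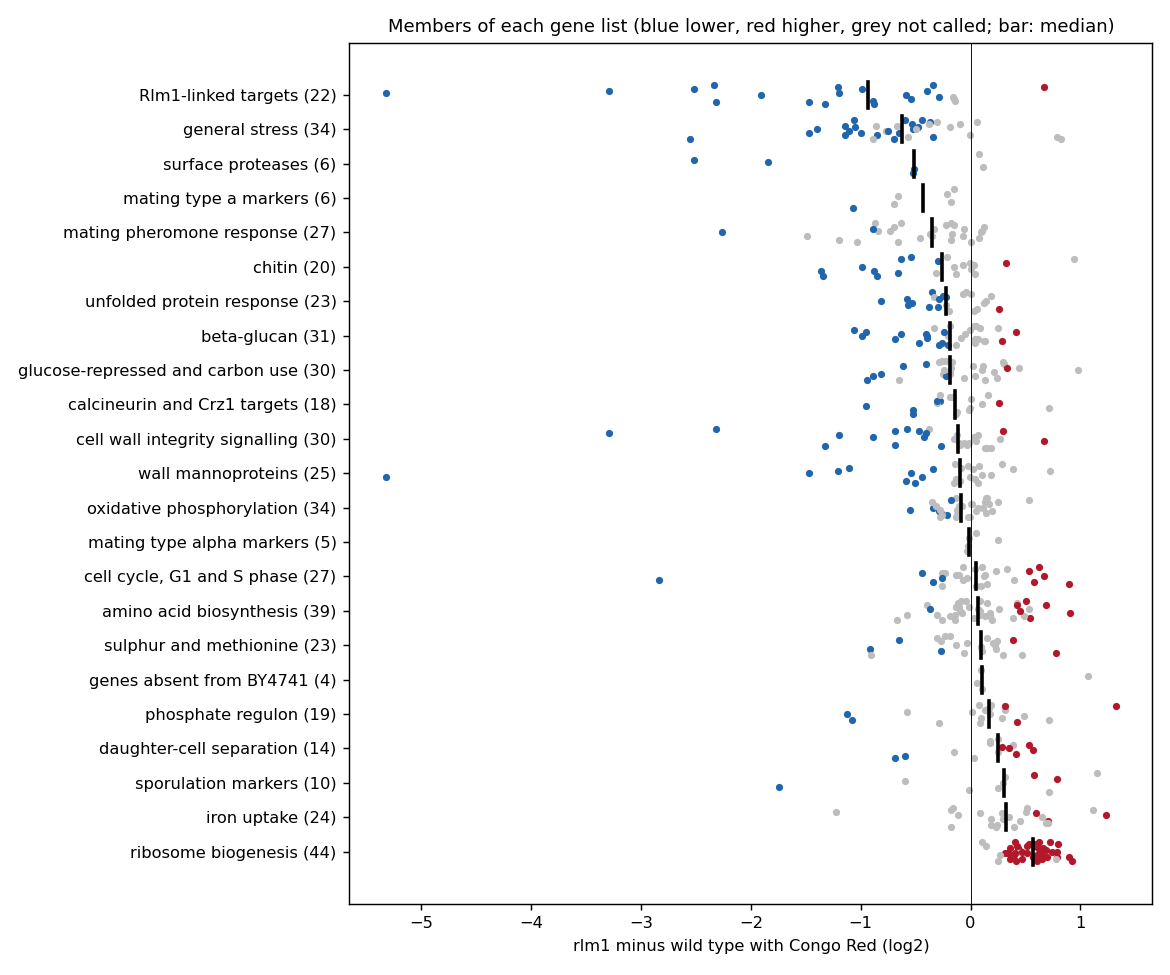
Difference rlm1 minus wild type under Congo Red (log2, horizontal axis) for the tested members of 23 gene lists, with the number of members in brackets; blue points were called lower, red higher and grey not called, and the black bar is the median of the list. Rlm1-linked targets (median -0.94) and general stress genes (-0.63) lie lowest and ribosome biogenesis genes (0.57) highest, beside a median of 0.02 over all features.

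The largest increases were of genes with diverse roles. APE1, a vacuolar aminopeptidase, was at 9.12, 8.60 and 9.90 in the wild type and at 10.85, 11.28 and 11.26 in rlm1. The wild-type arrays varied by over 1 unit and did not overlap with rlm1 (1.92 ± 0.28, adjusted p = 0.00128). Both strains were between 10.53 and 11.29 without the dye. HMS2, related to heat shock factors, differed by 1.44 ± 0.16, SHU2, a recombination protein, by 1.35 ± 0.14, and PHM6, a gene of the phosphate regulon, by 1.32 ± 0.14. MAE1, the mitochondrial malic enzyme, was higher by 1.22 ± 0.17 and HPT1, a purine salvage enzyme, by 1.13 ± 0.10 (adjusted p = 0.000943 and 8.1e-05). YDR222W, of unknown function, was at 8.27, 8.13 and 8.27 in the wild type and 9.33, 9.36 and 9.38 in rlm1 (1.13 ± 0.06, adjusted p = 2.34e-06). RFU1, an inhibitor of the ubiquitin protease Doa4, was at 1.13 ± 0.23 (adjusted p = 0.00726).

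BRE5 and RSC8 were higher by as much without the dye. BRE5, a cofactor of the ubiquitin protease Ubp3, was at 9.05, 9.35 and 9.29 in the treated wild type and at 11.10, 10.88 and 10.81 in treated rlm1 (1.70 ± 0.10, adjusted p = 5.9e-06). Its difference without the dye was 1.76 ± 0.10 (adjusted p = 3.22e-05). RSC8, a subunit of the chromatin remodelling complex RSC, differed by 1.49 ± 0.13 with and 1.47 ± 0.13 without the dye (adjusted p = 7.27e-05 and 0.000659). SRO9, an RNA-binding protein, was at 10.24, 7.99 and 8.84 in the treated wild type and 10.79, 10.63 and 10.73 in rlm1. The wild-type arrays were spread over more than 2 units, and its call (1.69 ± 0.46, adjusted p = 0.0253) was lost without any of 5 of the 6 arrays (up to 0.0664, without number 2 of the wild type). PPT1, a protein phosphatase, was at 1.04 ± 0.26 (adjusted p = 0.019), lost without number 3 of the wild type or number 2 of rlm1 (up to 0.0546). FRE4, a ferric reductase with a wild-type mean under 7, was at 1.23 ± 0.32 (adjusted p = 0.0211), lost without any of 3 arrays (up to 0.0623, without number 2 of the wild type).

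How many mating genes were called depended on 1 wild-type array. Of 27 measured genes of the pheromone response, 2 were lower (7.41%, beside 12.4% of all features), PRM10 and MSG5, and 0 higher (beside 11.4%). The median was -0.35. PRM10 and MSG5 kept their calls without each of the 6 arrays, as did AFR1, described above and outside this list. Without number 3 of the treated wild type, 13 were lower. AGA2, the a-agglutinin subunit, was at 11.92, 11.95 and 9.83 in the treated wild type and at 10.51, 10.64 and 10.45 in treated rlm1. Number 3 of the wild type was below all rlm1 arrays and the other wild-type arrays above them, so the difference was -0.70 ± 0.55 over all arrays (adjusted p = 0.393) and -1.40 without that array (adjusted p = 0.0336). The untreated wild-type number 3 was low as well (10.60, against 12.07 and 12.17). Of 6 markers of mating type a, the mating type of BY4741, 1 was called lower (16.7%, beside 12.4% of all features). It was MFA1 (-1.07 ± 0.33, adjusted p = 0.0425), and 5 were called lower without number 3 of the wild type. MFA1 lost its call without any of the other 5 arrays (adjusted p up to 0.141, without number 1 of the wild type).

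Markers of other cell types were examined in the same way. The 5 markers of mating type alpha had 0 calls, with mean levels from 4.69 to 8.78 in the treated wild type and from 4.82 to 8.83 in treated rlm1. The largest of their differences were HMLALPHA1 (0.25 ± 0.18) and SAG1 (0.05 ± 0.14). Of 10 markers of sporulating cells, 1 was lower (10%) and 2 were higher (20%), beside 12.4% and 11.4% of all features. Their means ran from 4.76 to 8.72 in the wild type and from 5.08 to 9.43 in rlm1. SPO11, which makes the breaks of meiotic recombination, was at 7.74, 7.76 and 6.85 in the treated wild type and 5.54, 5.79 and 5.79 in rlm1 (-1.74 ± 0.24, adjusted p = 0.000943, a least estimate). IME2, a kinase of meiosis, was higher with (0.79 ± 0.14, adjusted p = 0.00297) and without the dye (1.06 ± 0.14, adjusted p = 0.0124). Neither call held after centring (adjusted p = 0.223 and 0.313), and the one without the dye was lost without any of 4 of the 6 untreated arrays (up to 0.0858, without number 1 of the wild type). SPS4 (0.58 ± 0.16, adjusted p = 0.0229), with a wild-type mean under 7, lost its call without 3 of the arrays (up to 0.0797, without number 2 of rlm1). Of 4 genes that BY4741 lacks in whole or in part, 0 were called. Of these HIS3 was at 0.11 ± 0.21, and LEU2 was at 1.07 ± 0.71 with the 1 high array described above and at 0.30 without both number 1 arrays.

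The cell cycle and cell separation lists held calls in both directions. Of 27 genes of the G1 and S phases, 4 were lower (14.8%) and 5 higher (18.5%), beside 12.4% and 11.4% of all features. The largest difference in the list was that of SRL3, which was lower (-2.84). The higher members included HO, the mating type endonuclease (0.90 ± 0.08, adjusted p = 7.27e-05), and TOS4 (0.63 ± 0.07). Others were the polymerase gene POL2 (0.58 ± 0.11) and SWI5, a factor of late mitosis (0.53 ± 0.12). Of 14 genes of daughter-cell separation, 2 were lower (14.3%) and 5 higher (35.7%). ASH1, a repressor of HO in daughter cells, was lower (-0.60 ± 0.09, adjusted p = 0.00119), as was NIS1, a protein of the bud neck (-0.69 ± 0.16, adjusted p = 0.0119). SUN4 (0.35 ± 0.09) and PRY3 (0.57 ± 0.18), both wall proteins, were called higher. SUN4 lost its call without number 1 of rlm1 (adjusted p = 0.066) and PRY3 without any of 5 arrays (up to 0.123, without number 1 of rlm1).

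Over the 5 nutrient lists, the share of members called higher ran from 3.33% to 15.8% and the share called lower from 0% to 20%, beside 11.4% and 12.4% of all features, and the members are described singly. Of 19 genes of the phosphate regulon, 2 were lower, PHM8, which removes phosphate from nucleotides and lysophosphatidic acid (-1.13 ± 0.26, adjusted p = 0.0122), and GDE1, a glycerophosphocholine phosphodiesterase (-1.08 ± 0.13, adjusted p = 0.000519). The 3 higher members were PHM6 and the regulators PHO4 (0.42 ± 0.13) and PHO81 (0.31 ± 0.09). PHO4 and PHO81 lost their calls without 5 and 4 of the 6 arrays (adjusted p up to 0.108 and 0.0937, both without number 1 of rlm1). Of 24 iron uptake genes, 0 were lower and 3 higher. These were FRE4, the low-affinity transporter FET4 (0.71 ± 0.09, adjusted p = 0.000664) and the reductase FRE1 (0.59 ± 0.16, adjusted p = 0.0265), whose call was lost without any of 4 arrays (up to 0.0908, without number 2 of the wild type). Without number 2 of the wild type 1 iron gene was higher, and without number 3 there were 5.

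Of 23 genes of sulphur and methionine metabolism, 3 were lower and 2 higher. MET3, the ATP sulphurylase, was lower (-0.91 ± 0.17, adjusted p = 0.00457). MET16 (-0.65 ± 0.20) and CYS3 (-0.27 ± 0.07) were called lower, but MET16 lost its call without 4 of the arrays (adjusted p up to 0.123, without number 1 of the wild type) and CYS3 without number 2 of rlm1 (0.0557). SAM1, an S-adenosylmethionine synthetase (0.39 ± 0.07, adjusted p = 0.00279), and MMP1, a transporter of S-methylmethionine (0.78 ± 0.18, adjusted p = 0.0141), were higher. The lower count was 6 without number 3 of the wild type and 1 without number 2 of rlm1. Of 39 genes of amino acid biosynthesis, 1 was lower and 6 higher, led by LEU9 of leucine synthesis (0.90 ± 0.22, adjusted p = 0.0155), HIS4 (0.69 ± 0.12, adjusted p = 0.00284) and HIS1 (0.55 ± 0.10, adjusted p = 0.00501), both of histidine synthesis. ARG8 (0.51 ± 0.08), LYS20 (0.45 ± 0.07) and SER1 (0.42 ± 0.10) were the others.

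Of 30 genes repressed by glucose or used for other carbon sources, 6 were lower and 1 higher. CYB2, lactate dehydrogenase, was lower (-0.94 ± 0.22, adjusted p = 0.0135), with means under 7 in both strains (6.48 and 5.54), where most reporter probe sets lay. ALD4, the mitochondrial aldehyde dehydrogenase (-0.81 ± 0.21), PCK1 of gluconeogenesis (-0.88 ± 0.24, rlm1 mean under 7), REG2 (-0.62 ± 0.18) and GUT2 of glycerol use (-0.40 ± 0.10) were called lower. ALD4 lost its call without number 1 of rlm1 (adjusted p = 0.0622), PCK1 without number 1 or 3 of the wild type (up to 0.0653), REG2 without any of 5 arrays (up to 0.0889, without number 2 of the wild type) and GUT2 without number 2 of rlm1 (0.0514). MAL11, a maltose transporter, was higher (0.33 ± 0.07, adjusted p = 0.00981), and its value was -0.23 as deposited, not called. Of 34 subunits of oxidative phosphorylation, 6 were lower (17.6%, beside 12.4% of all features) and 0 higher (beside 11.4%), by small amounts. The lower share is near that of all features, so the members are described singly. QCR2, of the cytochrome bc1 complex, differed most (-0.55 ± 0.11, adjusted p = 0.00542). The other 5 were ATP synthase genes, from ATP15 (-0.34 ± 0.08) and ATP3 (-0.28 ± 0.07) to ATP7 (-0.27 ± 0.08), ATP16 (-0.22 ± 0.07) and ATP14 (-0.18 ± 0.05). Of these ATP3 alone kept its call without each of the 6 arrays, and 1 of the 34 was lower after centring.

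Across the genes named here, 129 were called under the dye. After centring, 35 of these were not called. Among them were RHO1, MTL1, ROM1 and MKK1 of the signalling pathway, EXG1, FKS1, KNH1, SED1, CCW14 and HSP150 of the wall, CTT1 and GPH1 of the stress list, YPS1, SWI4, PHM8 and RRP36. Of the lists, centring left 3 lower members of the calcineurin list, 2 of the G1 and S phase list, 1 of the phosphate regulon, 3 higher members of the cell separation list, 1 of the phosphate regulon and 0 of the sporulation markers. With same-numbered arrays of a strain as a random block, 6 genes lost their call, namely ATP14, ATP15, HAC1, MKK1, PHO4 and SUN4. Fitted on the 6 arrays of the comparison alone, 31 genes lost their call, among them FKS1, NIS1, RRP14, LEU9 and MMP1. As deposited, 95 were not called, and 13 Rlm1-linked targets, 5 signalling genes, 5 chitin genes, 3 mannoproteins and 2 beta-glucan genes were called lower.

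The same strains were then compared without the dye, which used the other 6 arrays. Few features differed: 25 in all (0.442%), 14 higher in rlm1 (0.247%) and 11 lower (0.194%), with 782 at an unadjusted p under 0.05. Of the 14 higher without the dye, all 14 were also higher with it, which is 2.17% of the 645. Of the 11 lower without the dye, 10 were also lower with it, which is 1.42% of the 703, and the exception was YLR154C-H (-1.85 without and -0.27 with the dye, chosen after its values were seen). RLM1, SOM1 and COS12 were the genes lower by at least 2-fold under the dye that were also called without it. SOM1 differed by -1.32 with and -0.80 without the dye and COS12 by -1.08 and -1.12, both named after their values were seen. None of the 22 Rlm1-linked targets was called without the dye, and their median there was 0.05.

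Whether the strain difference with the dye differed from that without it was tested as the interaction term of the same fit. It was called in 206 features (3.64%), 125 with a lower value under the dye (2.21%) and 81 with a higher one (1.43%). This test shares its arrays with both comparisons, so its values are set beside theirs only gene by gene. With same-numbered arrays of a strain as a random block, 665 were higher (11.8%) and 524 lower (9.26%), 1189 in all (21%), among which were all 206. Without both number 1 arrays of rlm1, 390 were called (171 higher and 219 lower), and without the untreated number 1 array alone 324. Leaving out any other array gave between 81 and 159 calls, with 81 without number 2 of untreated or of treated rlm1.

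In the lists, the interaction was called lower for 15 of 22 Rlm1-linked targets, 7 of 25 mannoproteins, 6 of 20 chitin genes, 5 of 31 beta-glucan genes and 5 of 30 signalling genes. With the random block these counts were 19, 10, 9, 13 and 11. It was called higher for 7 of 44 ribosome biogenesis genes (32 with the block), for 1 chitin gene, CHS2 (0.41 ± 0.09, adjusted p = 0.0431), and for 1 beta-glucan gene, DSE4 (0.45 ± 0.09, adjusted p = 0.0289). Of 39 genes of amino acid biosynthesis it was called higher for 2 (13 with the block), and of 24 iron uptake genes for 0 (5 with the block). It was called lower for 2 of 34 general stress genes, SPI1 and NTH1, but for 17 with the block, and for 0 of 23 genes of the unfolded protein response (3 with the block). Of the 18 calcineurin genes, 5 were called lower with the block. PIR3 had the largest interaction (-5.37 ± 0.22, adjusted p = 8.74e-07), from a difference of -5.32 with the dye and 0.05 without it. For SLT2 the values were -1.33 with and 0.13 without the dye (interaction -1.46 ± 0.21, adjusted p = 0.0055). For GSC2 they were -0.95 and -0.25, and the interaction was not called (-0.70 ± 0.20, adjusted p = 0.104) except with the random block (adjusted p = 0.00225). For HSP12 they were -2.56 and 0.33, and the interaction of -2.89 ± 0.75 was not called (adjusted p = 0.0724) except with the block (adjusted p = 0.000259). For RLM1 they were -5.36 and -4.16 (interaction -1.20 ± 0.33, adjusted p = 0.0901, and 0.000743 with the block), with both rlm1 means under 7.

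**Figure D4:**
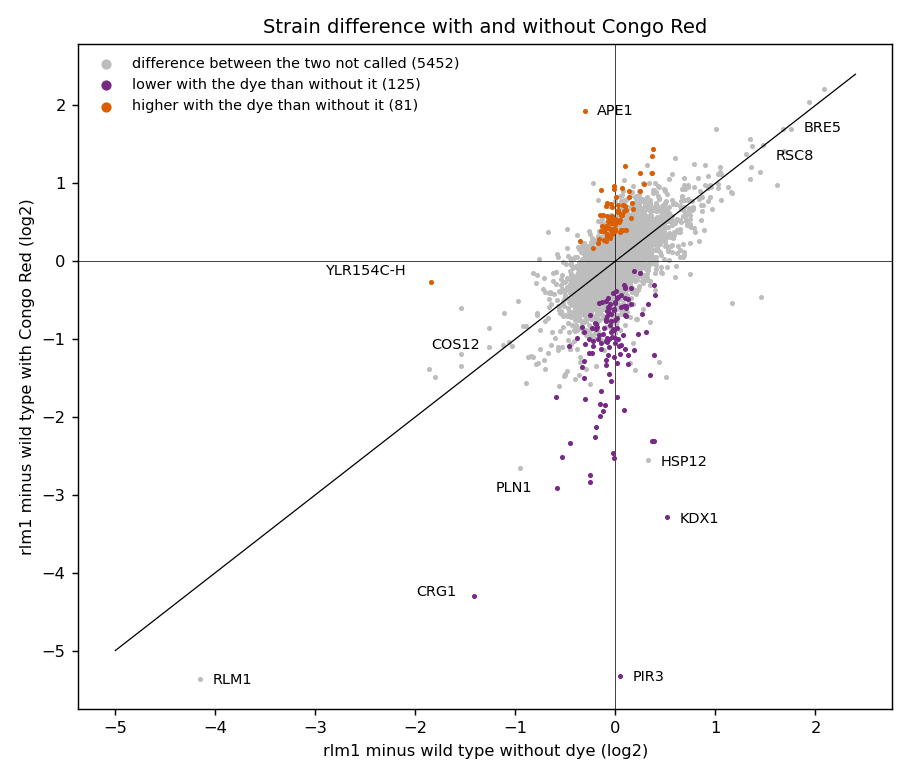
Difference rlm1 minus wild type with Congo Red (vertical axis, log2) against the same difference without the dye (horizontal axis, log2) for 5658 features, 3 arrays per group. Purple marks 125 features and orange 81 features in which the difference between both was called lower or higher, and the diagonal marks equal differences. PIR3 lies far below the diagonal near zero on the horizontal axis. KDX1 also lies far below the diagonal, with a value above zero without the dye that was not called (limma adjusted p = 0.179). BRE5 and RSC8 lie close to the diagonal.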

How the data were processed

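The deposited table holds log2 probe set values. GCRMA is the tool listed in the submitters' processing notes; it corrects for background, normalizes the arrays and summarises the probes of a set. Its version, the genome build and which arrays were normalized together are not given in the sources used here. That the scale is log2 follows from the range of the deposited values. Of 5814 probe sets, 98 controls were left out. The platform annotation named 5498 of the others, and NCBI's R64 table updated 12 symbols. Where 1 gene had several probe sets, that of the highest mean level was kept. Features had to reach 4 on at least 3 of the 12 arrays, which left 5658, of which 5441 had a name. At least 95.3% of probe sets differed between any 2 arrays.

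The 12 wild-type and rlm1 arrays were quantile-normalized and fitted in R 4.3.3 by lmFit followed by eBayes of limma 3.58.1 (means of 4 groups). The fit had 8 residual and 2 prior degrees of freedom. The swi3 arrays were left out because the spread as deposited was larger in rlm1. After normalization, the median SD in rlm1 (0.119 and 0.115) was near that in the wild type (0.096 and 0.12). With all 18 arrays, 1303 features were called under the dye. The scripts were tested on simulated data. With 3 arrays per group, the number of arrays limits the precision. Same-numbered arrays of a strain deviated together between untreated and treated (r across features 0.73, 0.46 and 0.81 for wild-type arrays, 0.885, 0.816 and 0.804 for mutant arrays), and those of both strains under the dye did not (0.18, -0.22 and 0.25). In rlm1, numbers 2 and 3 also deviated together across numbers (0.824 and 0.71), so there only number 1 stood out from the others. Numbers were taken to pair arrays within a strain, not between strains, from this check and not from the labels.

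The comparison, the 23 gene lists and the rules were chosen with earlier results of these data known. Named were RLM1 and its neighbours, the 15 largest decreases and increases, the 10 largest interactions, the 12 largest rises with the dye in the wild type, and in each list up to 6 called members, or the 2 largest differences where fewer than 2 were called (122 genes). A further 22 were added after their values were seen: DIA1, CMK2, YSR3, RTA1, RCR1, FKS1, PIR1, HSP150, CIS3, MTL1, MID2, RHO1, PKC1, BCK1, MKK1, HSP104, CTT1, NTH1, YDC1, GLR1, CHS2 and DSE4. Lists were described by counts and medians, not tested.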

Additional observations from a re-analysis of the deposited data

Results flagged for a closer look

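For 49 of the genes named above, the strain difference under Congo Red itself differed from the one without the dye by the interaction term of the limma fit (adjusted p under 0.05), and the values below are that term, with n = 3 arrays per group. No explanation was tested. Among genes of the wall and its signalling, it was -5.37 for PIR3, -3.80 for KDX1, -2.67 for BAG7, -1.999 for YPK2, -1.98 for YPS3, -1.93 for KTR2, -1.88 for PRM5, -1.81 for PST1, -1.74 for YPS6, -1.59 for CWP1, -1.46 for SLT2 and -1.33 for PTP2. Smaller terms were found for GFA1 (-1.24), SPI1 (-1.04), PCM1 (-1.02), CRH1 (-0.98), MTL1 (-0.95), CHS1 (-0.88), CHS3 (-0.85), EXG2 (-0.76), SED1 (-0.64), ROT1 (-0.61), CCW14 (-0.54), EXG1 (-0.49), HSP150 (-0.44) and YPS7 (-0.42).

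Outside the wall lists, the term was negative for CRG1 (-2.89), YPL088W (-2.70), SRL3 (-2.58), YNR065C (-2.50), PLN1 (-2.33), PRM10 (-2.06), SPO11 (-1.75), GDE1 (-1.13), NTH1 (-0.91) and ASH1 (-0.54). It was positive for SAM1 (0.40), CHS2 (0.41), DSE4 (0.45), LYS20 (0.53), HO (0.65), HIS4 (0.73), HPT1 (0.76), YDR222W (0.89), DHR2 (0.94), SHU2 (0.98), HMS2 (1.06), MAE1 (1.12) and APE1 (2.23). Means under a level of 7 enter the terms of BAG7, SPO11 and CRG1, whose sizes are therefore uncertain.

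With each of the 12 arrays left out in turn, 27 of the 49 kept their call every time, 4 lost it without 1 or 2 arrays (PRM5, YPS3, APE1 and LYS20) and 18 without 3 or more. The 18 were HPT1, CHS3, EXG1, MTL1, SHU2, SPO11, DSE4, BAG7, HMS2, MAE1, ASH1, DHR2, NTH1, YPS7, HSP150, SAM1, CHS2 and HIS4, and HIS4 lost it without each of the 12 (adjusted p up to 0.113). Their highest adjusted p was 0.136, for SAM1 without number 2 of the untreated wild type. All 49 were called with same-numbered arrays of a strain as a random block (limma adjusted p = 0.000457 for HIS4 and 0.00143 for SAM1). After centring 19 of the 49 were not called, and as deposited 43 were not, the exceptions being PIR3, KDX1, SLT2, YPK2, YPL088W and BAG7.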

How the results depend on the processing

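The count under Congo Red (1348) was 872 after centring (368 higher, 504 lower), 94 as deposited, 849 with the 6 arrays of the comparison alone, 2379 with array weights and 105 at 2-fold. With the replicate block by number across strains it was 1631, and with 1 array left out 919 to 1183. Without the dye (25), it was 7 after centring, 3 as deposited, 6 with 6 arrays, 1935 with array weights, 46 with the trended and robust prior, 7 at 2-fold, and 6 to 30 with 1 array left out. The interaction count (206) was 87 after centring (89.7% lower, against 60.7%), 9 as deposited (all lower), 988 with array weights, 1189 with the random replicate block within strains, 390 without both number 1 arrays of rlm1, 52 at 2-fold, and 81 to 324 with 1 array left out. The other alternatives (all 18 arrays, ordinary least squares, no filter, a filter at 7 and the mean of probe sets) stayed within 1.5 times of each count. Why array weights gave so many calls was not tested.

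Of 144 named genes, 129 were called under the dye. Of these, 34 were called under every alternative, and 44 lost their call only as deposited, where the rlm1 number 1 arrays lie lower as a whole. Among the genes not called, PIR1 gained a call in 3 of 19 alternatives, YSR3, CIS3 and AGA2 in 2 and RCR1 in 1. Differences that changed sign were uncalled under both settings except for MAL11, called at first (-0.23 as deposited). After centring they were CIS3 (0.02) and SAG1 (-0.10). As deposited they were CMK2 (-0.13), HIS3 (-0.13), PKC1 (-0.24) and SAG1 (-0.36), and with array weights HIS3 (-0.065) and SAG1 (-0.044). With 1 array left out PKC1 ranged from -0.051 to 0.091, HIS3 from -0.14 to 0.24 and SAG1 from -0.09 to 0.18. Low levels limit the differences with a mean under 7. No other call of the strain difference under the dye was examined for each alternative beyond the named genes and lists.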

Other observations

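Genes outside the lists were looked at after their values were seen, and their leave-one-out values were not computed. The vacuolar enzymes APE1 and AMS1 are both cargo of the cytoplasm-to-vacuole route, and they differed in opposite directions under Congo Red. AMS1, the mannosidase, was at 10.37, 10.34 and 10.51 in the wild type and at 8.51, 8.93 and 8.96 in rlm1 (-1.60 ± 0.20, limma adjusted p = 0.000568), while APE1 was higher in rlm1 by 1.92. Their receptor ATG19 was lower (-0.66 ± 0.12, adjusted p = 0.00429), and so was ATG8, the ubiquitin-like protein of the autophagy membrane (-1.15 ± 0.21, adjusted p = 0.00382). ATG1, the kinase of that route, was not called (-0.55 ± 0.34, adjusted p = 0.28).

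The FLC genes, for membrane proteins of flavin transport, also split. FLC1 was at 11.98, 11.98 and 12.19 in the wild type and 11.12, 10.96 and 11.05 in rlm1 (-1.01 ± 0.08, adjusted p = 4.66e-05), and FLC2 differed by -1.12 ± 0.08 (adjusted p = 2.26e-05). FLC3 was not lower, and its small increase (0.26 ± 0.08, adjusted p = 0.044) lay close to the threshold for a call. RIM21, a sensor of the Rim101 pathway of ambient pH, was at 10.60, 10.70 and 10.85 in the wild type and 9.38, 9.56 and 9.41 in rlm1 (-1.27 ± 0.09, adjusted p = 1.37e-05). Other genes of that pathway were not called, such as RIM101 (-0.18 ± 0.08, adjusted p = 0.125), RIM13 (-0.09 ± 0.10, adjusted p = 0.523) and DFG16 (0.02 ± 0.12, adjusted p = 0.911). ASK10, a regulator of the glycerol channel Fps1, was lower (-1.21 ± 0.09, adjusted p = 2.41e-05), as was HAL1 of halotolerance (-1.93 ± 0.11, adjusted p = 2.63e-06).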
